A study of Mus musculus with 6 samples.

Results

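The genes of the E2F family of transcription factors and of 2 of their partners in the cell cycle, B-Myb and FoxM1, were examined for binding of NF-YA in muscle stem cells (MuSCs) of wild-type mice. The members were 10 genes, E2f1 to E2f8, Mybl2, which encodes B-Myb, and Foxm1. A member counted as bound when at least 1 peak in the deposited table carried its symbol, so a member without a row has no annotated peak. Of the 10 members, 5 had a peak, and together they held 9 of the 9056 peaks. The study profiled NF-YA by CUT&RUN, in which an antibody guides a nuclease to its target in permeabilised cells and the released DNA is sequenced. The cells were in vitro cultured MuSCs in the activated/proliferating state, with wild type genotype and from the C57BL/6 strain. The methods describe adult mice of both sexes as the source. There were 6 samples, of which 3 were made with the NF-YA antibody and 3 with mouse IgG as the control. The libraries of a group are separate biological replicates per the methods. Values for the IgG libraries were not analysed here, so binding is given without a background value of its own. The table holds binding and no expression, so the cell type could not be checked against its markers.

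NF-Y is a trimer that binds the CCAAT box, and NF-YA is the subunit that reads the sequence. E2F proteins bind DNA with a DP partner and switch on genes for DNA replication when the retinoblastoma protein releases them. B-Myb joins the MuvB core, and this complex recruits FoxM1 to genes needed for mitosis. Many of those mitotic genes are known to carry CCAAT boxes, and the resting form of MuvB, the DREAM complex, holds them silent in cells that do not divide. MuSCs rest in uninjured muscle and enter the cell cycle in culture, so these regulators belong to the passage from rest to proliferation.

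Because NF-YA reads CCAAT, the stretches of the strongest peak of each bound gene that hold its closely spaced boxes are shown, 5′ to 3′ on the strand of the gene, from the mouse genome mm10 (GRCm38). Capitals mark CCAAT, or ATTGG where the box lies on the opposite strand. None of these stretches overlaps an annotated exon. The E2f1, E2f3 and E2f8 stretches are on the minus strand (chr2:154569909-154570034, chr13:29986128-29986220 and chr7:48881110-48881167). The E2f2 and E2f7 stretches are on the plus strand (chr4:136180596-136180745 and chr10:110745381-110745438).
E2f1: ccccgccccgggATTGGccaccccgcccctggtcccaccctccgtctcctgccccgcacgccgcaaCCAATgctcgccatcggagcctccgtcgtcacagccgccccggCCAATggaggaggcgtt
E2f2: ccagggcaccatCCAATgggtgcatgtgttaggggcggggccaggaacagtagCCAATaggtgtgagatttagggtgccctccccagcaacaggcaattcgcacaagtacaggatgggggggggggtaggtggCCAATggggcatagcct
E2f3: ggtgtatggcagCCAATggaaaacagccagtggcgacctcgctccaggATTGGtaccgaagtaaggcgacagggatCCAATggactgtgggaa
E2f7: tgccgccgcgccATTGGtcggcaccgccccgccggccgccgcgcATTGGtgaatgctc
E2f8: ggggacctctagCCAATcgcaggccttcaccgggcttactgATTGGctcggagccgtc

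By role, the bound members were the activators and the atypical repressors. All 3 activator genes, E2f1, E2f2 and E2f3, had a peak, as did both atypical repressor genes, E2f7 and E2f8, whose proteins bind DNA without a DP partner. The canonical repressor genes E2f4 and E2f5, the gene of the repressor E2F6, and the genes Mybl2 and Foxm1 had none. The 5 of 10 members compare with 3970 of all 21992 protein-coding genes, or 18.1%, a background that includes genes silent in MuSCs. No test was attached to this share, because the members were chosen by hand.

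Values are normalised reads per peak, that is, read numbers scaled for library size and rounded by the authors. They are not divided by peak length unless this is said. In the 3 NF-YA libraries 1 read was worth 0.664, 1.48 and 1.02 normalised reads, and about 481317, 226921 and 334615 reads lay in peaks, so replicate 2 is the least precise. In the same order, 3 reads, used as a floor, were worth 1.99, 4.43 and 3.06. By the reporting summary of the paper, replicate 1 had shorter reads than replicates 2 and 3. It also had the fewest uniquely mapped reads and the most called peaks, and replicate 2 had the most uniquely mapped reads. The median peak of the table had 14, 16 and 15 normalised reads, and the median promoter peak of protein-coding genes had 31, 30 and 32. With 1 group of 3 libraries, an exact sign-flip test of any difference could not go below p = 0.25, so differences between peaks are given with their spread and without a p-value.

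The strongest binding lay at E2f3, an activator that drives entry into S phase. Its peak (chr13:29985999-29986782, 784 bp) had 245, 293 and 297 normalised reads, a mean of 278 ± 28.9 (SD, n = 3). All 3 libraries placed it far above the median promoter peak. It ranked 126 among the 9056 peaks, above 98.6% of them and above 96.7% of the promoter peaks of protein-coding genes. About 369, 198 and 291 reads stand behind the 3 values. Its coefficient of variation (CV) was 10.4%, where counting error alone gives 6.22%. The peak is long, and per kb it held 355 normalised reads, above 96.5% of peaks. Among the 89 peaks within 100 bp of its length, the median level was also 278 normalised reads. The peak covers the start of transcript E2f3-201 at 29986063, and its centre lies 328 bp upstream of that start. E2f3 is known to make its isoforms from separate promoters, and the transcripts E2f3-203 and E2f3-204 start at 29984391, which is 2000 bp from the centre of the peak. No other peak was annotated to E2f3, so this inner start had none of its own.

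E2f1, the founding activator of the family, came next. Its peak (chr2:154569883-154570179, 297 bp) had 81, 72 and 80 normalised reads, a mean of 77.7 ± 4.93 (SD, n = 3). The 3 libraries lay close together, with a CV of 6.35% where counting error gives 11.6%. The peak covers the start of E2f1-202 at 154569892, with its centre 139 bp upstream, and the start of E2f1-201 lies 311 bp from the centre. It stood above 87.8% of all peaks. Per kb its level was 262 normalised reads, above 92.3% of peaks.

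E2f2, the third activator, was bound at an inner start. The peak nearest its first start was weak and centred 2149 bp from it. Its strongest peak (chr4:136180508-136180766, 259 bp) had 41, 52 and 46 normalised reads, a mean of 46.3 ± 5.51 (SD, n = 3). It stood above 79.6% of all peaks, and all 3 libraries lay above the median promoter peak. By the table this peak lies 8243 bp downstream of the E2f2 start at 136172394, in intron 3 of the coding transcript E2f2-201. Its centre is 146 bp upstream of the start of E2f2-202 at 136180783, a transcript annotated as noncoding. RefSeq places a start of E2f2 within 1 bp of this position, at 136180782.

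The other 3 peaks of E2f2 were weaker and lay in intron 1. The peak at chr4:136174490-136174596, centred 2149 bp from the first start, had 4, 6 and 5 normalised reads. The neighbouring peak at chr4:136174937-136175036 had 4, 4 and 6 normalised reads. The peak at chr4:136177295-136177455 reached 14, 16 and 13 normalised reads, close to the median of all peaks. In every library each of them stayed below the strongest peak of the gene.

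E2f8, an atypical repressor that shuts E2F targets down late in S phase, had a peak at its promoter that varied between libraries. The peak (chr7:48880985-48881285, 301 bp) had 67, 33 and 51 normalised reads, a mean of 50.3 ± 17.0 (SD, n = 3). Replicate 1 was the highest and replicate 2 the lowest, and the CV of 33.8% compares with 13.8% from counting error. The value in replicate 2 rests on about 22 reads. The centre lies 461 bp downstream of the listed start at 48881596, in intron 1 of E2f8-202. It is also 94 bp upstream of the start of the coding transcript E2f8-201 at 48881041, which the peak covers. The gene Gm2788 starts within 1000 bp of the same centre, so the table's assignment to E2f8 alone does not separate the 2 genes.

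A second peak of E2f8 (chr7:48875169-48875268) had 4, 3 and 2 normalised reads. It lies in intron 5 of the coding transcripts, over the start of a retained-intron transcript. In replicates 2 and 3 its value was under 3 reads, and it was the only member peak for which this was so in any library.

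E2f7, the other atypical repressor, had the weakest of the 5 strongest peaks. The peak (chr10:110745326-110745526, 201 bp) had 22, 16 and 17 normalised reads, a mean of 18.3 ± 3.21 (SD, n = 3). All 3 values lay below the median promoter peak and at or above the median of all peaks in their own library. It stood above 56.7% of all peaks. The CV of 17.5% compares with 23.5% from counting error, on about 33, 11 and 17 reads. Its position was the most central, with the centre 12 bp upstream of the listed start at 110745439 and 5 annotated transcript starts inside the peak.

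**Figure D1:**
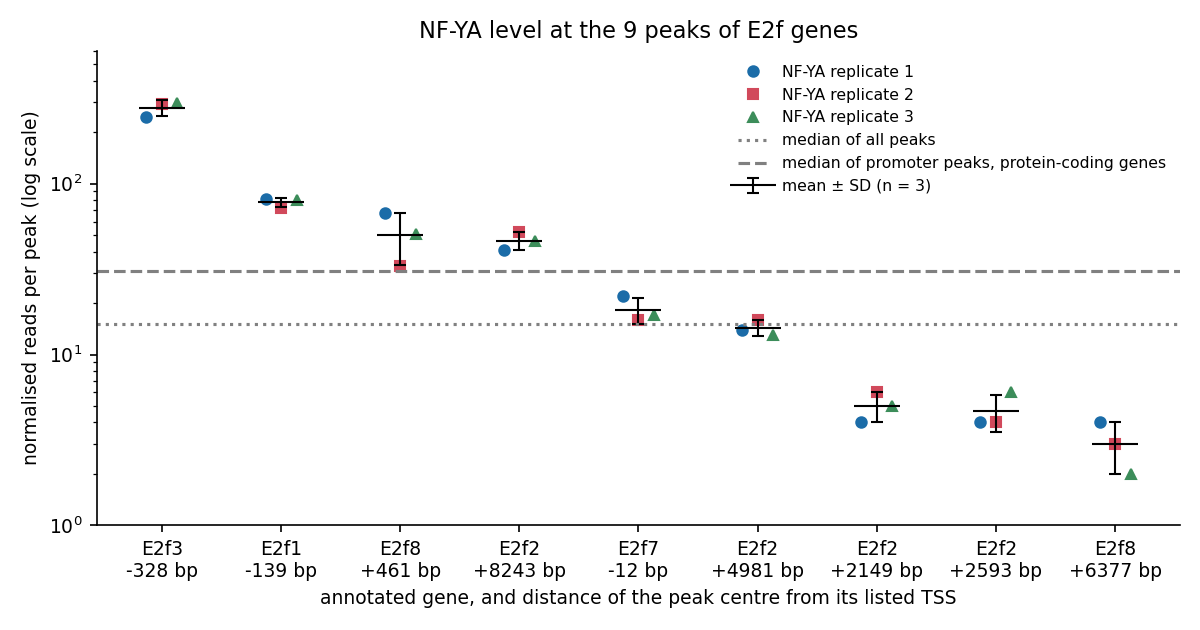
Normalised reads (vertical axis, log scale) at the 9 peaks annotated to E2f genes, by gene and distance of the peak centre from its listed transcription start site (TSS). Symbols are the 3 NF-YA libraries, bars the mean ± SD, the dotted line the median of all peaks and the dashed line the median of promoter peaks of protein-coding genes. E2f3 stands at 278, E2f7 at 18.3, and 3 of the peaks lie at 5 or less.

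The order of the strongest peaks held in every library except for 1 pair. E2f3 exceeded E2f1 by 1.82 ± 0.22 on the scale of log2(normalised reads + 1), which is 3.54-fold, in 3 of 3 libraries. Divided by peak length, which is greater at E2f3, this difference was 0.44. E2f1 exceeded E2f8 by 0.67 ± 0.42 in 3 of 3 libraries, and their values did not overlap. E2f8 and E2f2 differed by 0.07 ± 0.67, with E2f8 higher in replicates 1 and 3 and E2f2 higher in replicate 2, so their order was not resolved. Per length (-0.15) or without replicate 1 (-0.25), E2f2 was the higher of the pair. E2f2 exceeded E2f7 by 1.30 ± 0.39 in 3 of 3 libraries. From E2f3 down to E2f7 the range was 3.86 ± 0.38, or 14.5-fold. Divided by peak length, the means of E2f3 and E2f7 differed 3.89-fold.

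By the listed TSS, 4 of the 9 member peaks lay within 1000 bp of it, where 41.4% of all peaks do. These were the peaks of E2f1, E2f3 and E2f7 and the strong peak of E2f8. The strongest peak of E2f2 falls outside this class only because the table measures from its first start. Measured to any annotated transcript start, the strongest peak of each of the 5 genes had its centre within 328 bp of one. No share of all genes on this measure is given here. By the listed TSS, the strongest peak lay within 1000 bp for 4 of the 5 members and for 2981 of the 3970 protein-coding genes with a peak.

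CCAAT was found somewhere in the strongest peak of all 5 genes, and in none of the other 4 peaks. Of all protein-coding genes with a peak, 79.6% had CCAAT in the strongest one, so this was common. The 5 peaks with a box had means from 18.3 to 278 normalised reads and lengths from 201 to 784 bp. The 4 without were at 3 to 14.3 normalised reads and 100 to 161 bp long, and a shorter peak has less room for a box. Over the whole table, the 5845 peaks with a box had a median of 23.0 normalised reads and the 3211 without had 8.67. Within 50 bp of the peak centre, 4 of the 9 member peaks held CCAAT, against 52.9% of all peaks. The exception among the strongest peaks was E2f3, whose nearest box lay 185 bp from the centre.

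The 5 strongest peaks together held 14 boxes, 8 on the strand of the gene and 6 on the other strand. Each had at least 2, as do 44.2% of promoter peaks of protein-coding genes and 29.0% of all peaks, whatever their length. The 4 boxes of the long E2f3 peak were fewer than the median of 5 in the 89 peaks within 100 bp of its length, of which 65 had at least 4. The longer consensus, CCAAT preceded by 2 purines and followed by C or G and a further purine, was met by 7 of the 14. The share of the boxes in all peaks that meet it is not given here. In E2f1 the boxes lay 31, 74 and 128 bp upstream of the start of E2f1-202, the last on the opposite strand. In E2f2 all 3 boxes were on the strand of the gene, 52, 132 and 173 bp upstream of the start of E2f2-202. In E2f3, the boxes lay 79, 107 and 143 bp upstream of the start of E2f3-201, with 1 more 562 bp upstream. The nearest 3 of these lie on the side of the peak that faces the gene, from 185 to 249 bp from its centre. In E2f7, boxes 12 and 44 bp upstream of the start were both on the opposite strand. In E2f8, boxes 83 and 112 bp upstream of the start of E2f8-201 faced each other on opposite strands, and both met the consensus. The 14 boxes all lay upstream of the nearest transcript start, and 13 of them within 173 bp of it. That start was chosen for each peak as the one nearest its centre. From the listed TSS, the boxes of E2f2 lay 8216 to 8337 bp downstream and those of E2f8 443 and 472 bp downstream. No share of the boxes in all peaks is given on this measure.

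**Figure D2:**
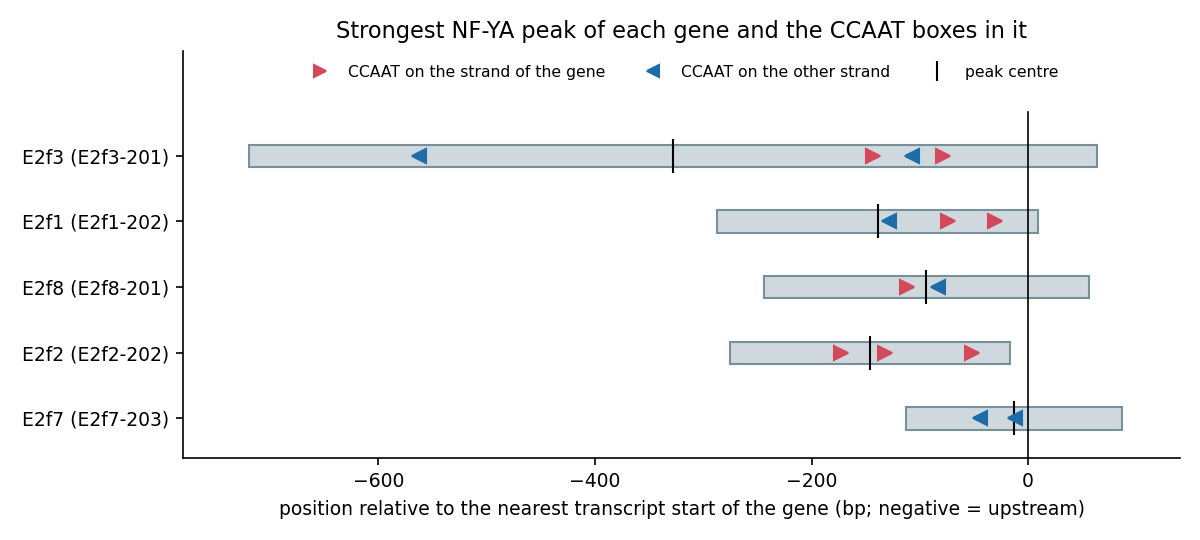
The strongest NF-YA peak of each bound gene (grey bar, with its centre as a black tick) and the CCAAT boxes in it (triangles, coloured by strand), against the distance in bp from the nearest transcript start of that gene. Every box lies upstream of the start, and 3 of the 4 boxes of E2f3 sit between 79 and 143 bp from it, far from the peak centre at 328 bp.

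Other sequence elements of cell cycle promoters were searched in RefSeq promoter windows of GRCm38.p6, which run from 250 bp before to 50 bp after a start. The table held 9 windows for 7 of the members, and windows for E2f4, E2f5 and Foxm1 were not used. The search covered both strands. An E2F site, spelled TTTCCCGC, TTTCGCGC, TTTGCCGC or TTTGGCGC, was present in 3 of the 9 windows, those at the outer start of E2f3, the first start of E2f2 and the start of E2f7. Of all 32851 windows, 2.26% held such a site. The cell cycle homology region (CHR), the element that MuvB reads, was searched as TTTGAA or TTCGAA. It was present in 3 windows, at the outer start of E2f3, the inner start of E2f2 and the listed start of E2f8, against 19.2% of all windows. The GC box GGGCGG was present in 7 windows, against 35.7% of all windows. CCAAT was present in 5 windows, against 37.4%. No spelling of one motif contains another, though neighbouring matches can share end letters.

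Of the 9 windows, 3 overlapped a peak: the outer start of E2f3, the inner start of E2f2 and the start of E2f7. The share of all windows that overlap a peak is not given here. Each of the 3 held CCAAT, which is common under peaks: 80.2% of promoter peaks of protein-coding genes held it somewhere. A box without a peak over it was found 11 bp upstream of the RefSeq start of E2f2 at 136172274, where an E2F site also lies 43 bp downstream of the start, and 110 bp upstream of the listed start of E2f8. The windows of Mybl2 and E2f6 and the window at the inner start of E2f3 held no CCAAT. The RefSeq window of E2f1, whose start at 154569426 is not under the peak, also held none. The outer promoter of E2f3 was the only one of the 9 windows with CCAAT, an E2F site, a CHR and a GC box together. Under the E2f8 peak, an E2F site, TTTGGCGC, lay 167 bp upstream of the start of E2f8-201. Within 100 bp of the centre, such a site was present in 1.90% of all peaks and in 3.79% of promoter peaks of protein-coding genes.

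The members without an annotated peak differed in how far away the nearest binding lay. For Foxm1, whose protein activates mitotic genes, the nearest peak centre was 7092 bp from its first start. That peak (chr6:128355780-128355969) was annotated to Tulp3 and had 25, 28 and 17 normalised reads. Foxm1 starts within 1000 bp of Rhno1, so a peak at their common promoter could have been listed under the other symbol, but no peak centre lay closer than 7092 bp to any Foxm1 start. For E2f4, which works with the pocket proteins in resting cells, the nearest peak was 8410 bp away, was annotated to Kiaa0895l and had 143, 158 and 155 normalised reads. Both distances are under the 10000 bp at which the table still assigns a gene, so these peaks were given to a nearer gene.

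For E2f6, a repressor that works without the retinoblastoma protein, the nearest peak was 26647 bp from any of its starts and carried no gene. It had 10, 1 and 8 normalised reads, and the value of replicate 2 is under the floor. For Mybl2 the nearest peak centre, at Srsf6, was 123572 bp away, with 76, 100 and 108 normalised reads. For E2f5, a pocket protein partner like E2f4, it was 4566124 bp away, at Fabp5, with 15, 13 and 15 normalised reads. Reads outside peaks were not analysed here, so binding below the peak threshold was not measured for these 5 genes.

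**Figure D3:**
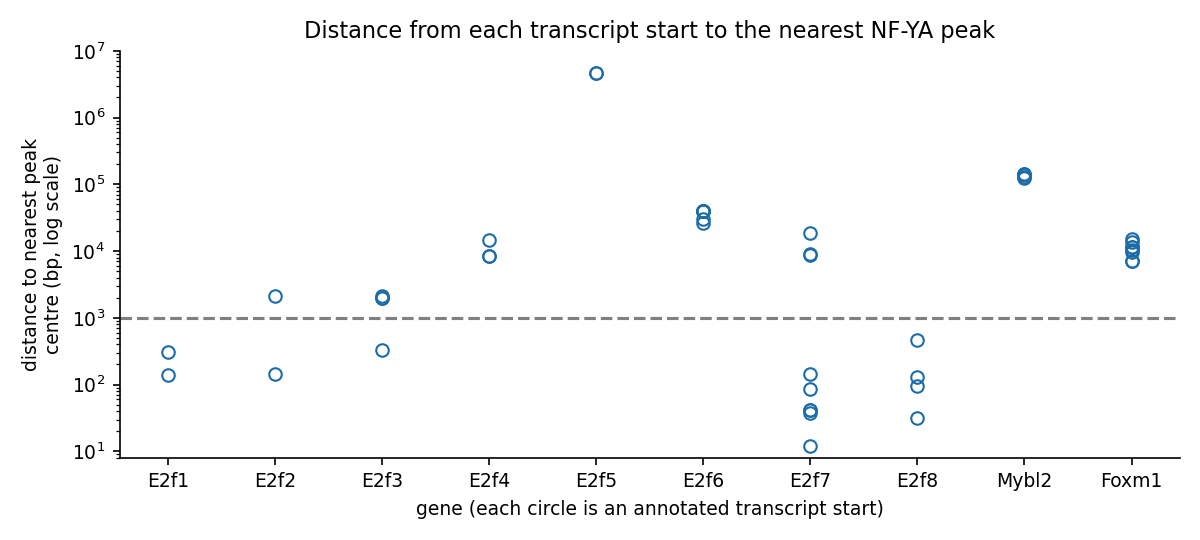
Distance from each annotated transcript start of the 10 genes (circles) to the nearest NF-YA peak centre, in bp on a log scale, with a dashed line at 1000 bp. E2f1, E2f2, E2f3, E2f7 and E2f8 each have a start below the line, and the starts of Foxm1, E2f4, E2f6, Mybl2 and E2f5 lie from 7092 to 4566124 bp away.

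Among the genes whose products assemble with E2F proteins and B-Myb in the DREAM and retinoblastoma complexes, 4 of 12 had a peak, or 33.3%. Of all protein-coding genes, 18.1% had one. Of the MuvB core, Lin52 had 374, 449 and 520 normalised reads, a mean of 448 ± 73.0 (SD, n = 3), above the E2f3 peak in every library. Lin37, a second MuvB subunit, had 63, 66 and 73 normalised reads. Rbbp4, a histone-binding protein that also belongs to MuvB, had 88, 74 and 96 normalised reads. The DP gene Tfdp2 had 38, 19 and 28 normalised reads. All 4 peaks lay within 1000 bp of the listed TSS and held CCAAT within 50 bp of the centre. The pocket protein genes Rb1, Rbl1 and Rbl2, the DP gene Tfdp1, the MuvB genes Lin9 and Lin54, and the Myb family genes Mybl1 and Myb had no annotated peak.

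Genes known to be activated by B-Myb and FoxM1 were mostly bound, although the genes of these factors had no peak. Of 20 such targets, 18 had a peak, where 18.1% of all protein-coding genes do. A mean of at least 10 normalised reads was reached by 16, and not by Plk1 (9, 1 and 8) or Cdc25b (7, 4 and 3). In all 18 the strongest peak lay within 1000 bp of the listed TSS, as in 2981 of the 3970 protein-coding genes with a peak. The highest 4 were Cdc25c, Top2a, Ube2c and Tpx2. Cdc25c, a phosphatase that opens mitosis, had 221, 275 and 251 normalised reads. Top2a, the topoisomerase that untangles chromosomes, had 206, 250 and 242. Ube2c, which tags mitotic proteins for destruction, had 193, 208 and 253, and the spindle gene Tpx2 had 125, 151 and 119. Bub1b and Birc5 had no annotated peak. The level at E2f3 was above Cdc25c, the highest of these, in 3 of 3 libraries. Per kb the order turned for Top2a, which had 396 normalised reads per kb against 355 at E2f3 and was the higher in 3 of 3 libraries.

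Of 20 genes known to be activated by E2F proteins at the start of S phase, 12 had a peak. Of all protein-coding genes, 18.1% had one. A mean of at least 10 normalised reads was reached by 10 of the 20, and not by Ccne2 (5, 0 and 4) or Mcm7 (9, 7 and 5). The value of Mcm7 is that of the 1 peak under its own symbol. Within 1000 bp of its transcript starts lay 3 peaks, and Ap4m1 was also named among them, so binding near Mcm7 may be understated here. The highest were Ccne1 with 114, 146 and 175 normalised reads, Mcm3 with 142, 140 and 131, Mcm5 with 120, 108 and 122, and Cdc25a with 117, 92 and 83. Ccne1 encodes cyclin E. It had 2 peaks, and the stronger, given here, lay 4820 bp from the listed TSS. Of its peaks, 1 lay within 1000 bp of an annotated transcript start of the gene. Mcm3 and Mcm5 encode parts of the replicative helicase, and Cdc25a a phosphatase that activates cyclin-dependent kinases. Genes without an annotated peak included Cdt1, Mcm2, Rrm1, Tk1, Tyms, Orc1 and Chek1. E2f3 exceeded all 4 of the highest in every library, and E2f1 fell below all 4 in every library. Per kb the mean of E2f1, 262, was above those of Ccne1 at 194 and Cdc25a at 245, and below those of Mcm3 and Mcm5. Per kb Mcm3 had 397 normalised reads and was above E2f3 in 2 of 3 libraries, and Mcm5 had 321 and was above it in 1 of 3.

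For genes with a peak, the median of the strongest peak was 50.3 normalised reads in the members, 76.7 in the complex partners, 58.3 in the B-Myb and FoxM1 targets and 74.0 in the E2F targets. For all 3970 protein-coding genes with a peak it was 28.3. CCAAT within 50 bp of the centre was found in 4 of the 5 members, 4 of 4 partners, 15 of 18 B-Myb and FoxM1 targets and 11 of 12 E2F targets, against 65.2% of protein-coding genes with a peak. The lists were written by hand, and all values come from the same 3 libraries.

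**Figure D4:**
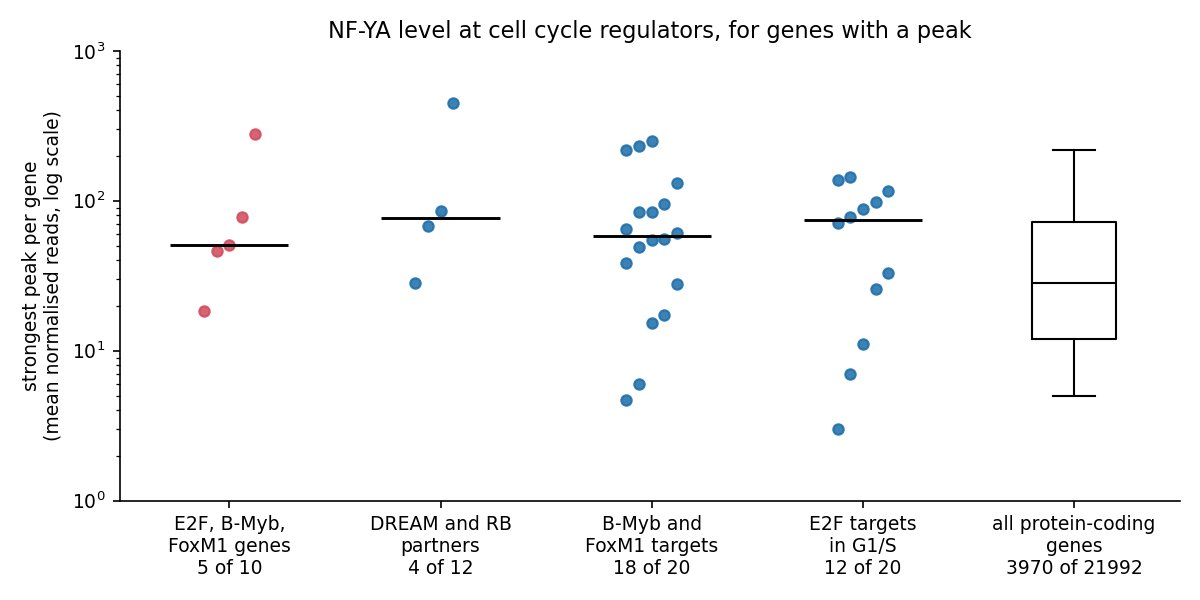
Mean normalised reads over 3 libraries at the strongest peak of each gene with a peak (points, log scale), for the members and 3 lists of related genes, with the median as a line and the number of genes with a peak under each name. The box shows the quartiles and the whiskers the 5th and 95th percentiles of all 3970 protein-coding genes with a peak. The median is 50.3 in the members and 28.3 in all genes, and E2f3 at 278 lies above the upper whisker.

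The peaks most like that of E2f3 across the 3 libraries, by Euclidean distance on log2(normalised reads + 1), were those of Ccnk, Cyth2 and Usp22. Ccnk, which encodes cyclin K, had 254, 293 and 278 normalised reads, at a distance of 0.11. Cyth2, which encodes an activator of ARF proteins, had 253, 269 and 300, at 0.13. Usp22, a deubiquitinase of the SAGA complex, had 263, 307 and 308, also at 0.13. Likeness over 3 libraries reflects mainly the level, and 100 of the 9055 other peaks lay within 0.5 of E2f3.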

How the data were processed

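NF-YA CUT&RUN libraries from cultured wild-type MuSCs were analysed as 1 group of 3. According to the methods, the authors aligned trimmed reads to mm10 with STAR (2.7.9a per the labels), removed duplicates, called peaks with MACS2 against IgG, merged them into 1 set and used featureCounts and DESeq2 to count and scale the reads in it. The deposited values are therefore a score: size-factor-normalised reads rounded to whole numbers. Such scaling hides a change of all peaks together, and each peak was selected on the same libraries.

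What 1 read is worth was estimated from the rounded values by maximum likelihood and tested on simulated data. Counting errors and floors cover counting error only. Peak starts, counted from 0 in the table, are printed from 1. Transcripts came from GENCODE M21 and promoter windows from RefSeq GRCm38.p6. CCAAT was searched on both strands. No test was run.

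Named were every member with each peak, every partner gene with a peak, the 4 highest genes of each target list, genes sharing a member's promoter, and the 3 peaks most like the strongest. Members and lists were chosen with earlier results of these data known. Alternatives covered reads per kb, total reads in peaks, other distances and windows, a minimum mean of 10, a minimum of 3 reads, and leaving out each library. Python 3.11.15, numpy 2.4.6, pandas 2.3.3, pysam 0.24.0 and matplotlib 3.10.9 were used.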

Additional observations from a re-analysis of the deposited data

How the results depend on the processing

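The 12 results on the members and related lists were recomputed under 39 alternatives, of which 31 left the value within the range set for it, 6 moved it and 2 turned its direction. The count of 5 members with a peak was the same under each alternative tried. The median percentile of the 5 strongest peaks was 81.1 and rose to 84.0 per kb; it ranged from 80.3 to 83.7 when each replicate was left out. Of the 5 places in the order of levels, 3 were kept per kb and 3 to 5 when each replicate was left out, replicate 1 being the one that gave 3. The lead of E2f3 over E2f1 was 0.44 per kb. The difference of E2f8 from E2f2 turned to -0.15 per kb, and ranged from -0.25 (without replicate 1) to 0.42 when each replicate was left out. With a limit of 5000 bp, 7 member peaks were near the listed TSS. With the longer consensus, 2 of the 9 member peaks held a box within 50 bp of the centre, close to the 24.9% of all peaks. Of promoter peaks of protein-coding genes, 34.5% did. The cause of these shifts was not tested, apart from the changed length, limit or sequence itself.

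No paired analysis was possible because values of the IgG libraries, which share replicate numbers with the NF-YA libraries, were not analysed here. The number of reads in a peak limits the weakest peaks: values of 2 to 6 normalised reads rest on a few reads.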
